A study of Mus musculus with 18 samples.

Results

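The libraries compared here are 9 of the 18 RNA-seq libraries of a study of macrophages, phagocytic cells that were differentiated in culture from mouse bone marrow. They are the libraries stimulated with PAM3 (Pam3CSK4, a synthetic bacterial lipopeptide) and form a series of 3 groups by 25-hydroxycholesterol (25HC), with 3 libraries each, labelled mouse 1 to mouse 3. At the low end were cells of Ch25h-/- mice, which lack the enzyme that makes 25HC and were given none. In the middle were cells of C57BL/6 mice (B6) given none, and at the high end were B6 cells given 25HC at 5 µM for 18 hours. All 3 groups received PAM3 at 300 ng/mL, with a stimulation time labelled 18 without a unit. The question was which genes run in the order Ch25h-/-, B6, B6 with 25HC. Genotype and added oxysterol both differ between the ends and cannot be told apart there, so each gene was also followed through the genotype step (B6 minus Ch25h-/-) and the oxysterol step (25HC minus B6). The labels give no amount of 25HC made by the cells, so the middle group is a step in genotype and treatment and not a measured dose. The other 9 libraries are the same 3 groups at rest.

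25HC is an oxidised cholesterol, the product of the enzyme cholesterol 25-hydroxylase, which Ch25h encodes. It binds INSIG proteins, which hold the SREBP transcription factors in the endoplasmic reticulum and so keep the genes of sterol synthesis and uptake low, and it is a ligand of the LXR nuclear receptors, which drive cholesterol export. PAM3 is sensed by Toll-like receptors 1 and 2, whose adaptor MyD88 leads to NF-kB, AP-1 and cytokine genes, and Ch25h itself is an interferon-stimulated gene.

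Ch25h followed its labels. The Ch25h-/- libraries held 1, 2 and 0 reads of it, which is 0.0477, 0.0871 and 0 CPM (counts scaled to a common library total of 1e6), against 3.55, 1.66 and 2.14 CPM in B6 and 4.92, 3.264 and 3.86 CPM with 25HC. Over the groups the level was 82.5 times higher with 25HC than in Ch25h-/- (95% interval for counting error alone 28.1 to 401) and 45.5 times higher in B6 (15.5 to 221). Ch25h was called higher in B6 than in Ch25h-/- and did not pass the test between 25HC and B6 (log2 difference 0.73, adjusted p = 0.264). At rest Ch25h had 20.4, 3.16 and 10.2 CPM in B6 and 40.8, 16.3 and 25.8 CPM with 25HC. The difference between rest and PAM3 was not tested for this gene alone.

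Total counts were 22257303 to 24119611 in the Ch25h-/- libraries, 39966508 to 150440297 in B6 and 44802579 to 137473801 with 25HC, so the low end was also the shallowest. Mitochondrial reads were 1.11% to 1.74% of counts. On the first principal component of the 9 libraries, which held 73.5% of the variance, Ch25h-/- lay at -59.6 to -39.4, B6 at -39.3 to -9.37 and 25HC at 63.3 to 82.9. On the second, with 11.5%, Ch25h-/- replicate 2 stood apart at -51.3 against -9.24 to 29.1 for the others, and values without it are given for the lists it moved most. The macrophage genes were abundant in every library, with 20 identity genes summing to 56011 to 61165 CPM in Ch25h-/-, 50812 to 65201 in B6 and 31739 to 38660 with 25HC. Of 9 B cell markers the sum was 16.7 to 28.02, 8.89 to 19.1 and 2.11 to 3.37 CPM in the same order. Cd79b made most of it in Ch25h-/- and B6 and had 15.6 to 23.3, 7.64 to 17.1 and 0.860 to 1.57 CPM. Cd22, the other B cell marker tested, had 1.02 to 4.01, 1.07 to 1.77 and 1.18 to 1.78 CPM. For 11 dendritic cell markers the sum was 334 to 657, 534 to 802 and 206 to 270 CPM. Most of that was Bst2, which is also on the interferon-stimulated list, at 292 to 601, 484 to 753 and 152 to 227 CPM. The 11 neutrophil markers summed to 179 to 243, 210 to 217 and 146 to 206 CPM. Of the 6 tested, 3 were lower with 25HC than in Ch25h-/- and none higher, beside 23.3% and 24.6% of all tested genes. The median end difference of the 6 was -2.69. The median neutrophil marker lay at 0.35, 1.11 and 0.39 on the log2(CPM + 1) scale relative to the B6 mean in Ch25h-/-, and at -0.29, -0.08 and -0.35 with 25HC. Ngp, a neutrophil granule gene, had 90 reads over the Ch25h-/- libraries and 2 with 25HC, and Ltf, lactoferrin, had 38 and 1. Ch25h-/- replicate 2 was the highest library for both, with Ngp at 0.525, 3.01 and 0.465 CPM and Ltf at 0.191, 1.18 and 0.325 CPM. Csf3r, which made most of the neutrophil sum, had 166, 219 and 177 CPM in Ch25h-/-, 209, 211 and 200 CPM in B6 and 151, 201 and 139 CPM with 25HC. The neutrophil markers Ly6g and Retnlg and the T cell markers Cd3e and Cd3g were at 0 in all 9 libraries. In bulk samples fewer cells of a type and less RNA per cell cannot be told apart, and the part of these markers in the results was not tested.

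Most of the distance between the ends lay in the oxysterol step. Between the ends 3134 of 12741 tested genes were higher with 25HC (24.6%) and 2967 were lower (23.3%), where a gene was called at an adjusted p below 0.05 (edgeR quasi-likelihood test). The oxysterol step called 2744 genes higher (21.5%) and 3006 lower (23.6%). The genotype step called 16 higher (0.126%) and 6 lower (0.0471%), while 1784 of the tested genes had an unadjusted p below 0.05. The steps share the B6 libraries, so a high or low B6 library moves them in opposite directions. A test of the difference between the steps called 827 genes (6.49%) with the oxysterol step more positive and 1333 (10.5%) with it more negative. These counts were 238 and 575 without B6 replicate 2, 261 and 500 without B6 replicate 3, 1418 and 1816 without B6 replicate 1, 469 and 817 without 25HC replicate 1 and 467 and 802 without 25HC replicate 3. The genotype step depended strongly on single libraries and on the tool. Leaving out 1 library gave 1 to 254 calls, with 254 without Ch25h-/- replicate 1, 3 without Ch25h-/- replicate 2 and 85 without B6 replicate 2, and DESeq2 gave 404.

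Genes in order were few when both steps had to pass the test. Rising in both were 9 genes (0.0706%) and falling in both were 2 (0.0157%). A looser description asks that the ends be called and that no library of B6 overlap with either end, with the 3 groups in order; 679 genes rose this way (5.33%) and 342 fell (2.68%). Asking only that the 3 group means be in order gave 2325 genes rising (18.2%) and 1871 falling (14.7%), or 1980 and 1517 without Ch25h-/- replicate 2. Among genes called between the ends with at least a 2-fold difference, 1270 higher (9.97%) and 1378 lower (10.8%), B6 lay a median 27.9% of the way from Ch25h-/- to 25HC on the log2 scale for the rising genes and 11.9% for the falling ones. A B6 mean outside the ends on the Ch25h-/- side was found for 138 of the rising and 390 of the falling genes.

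The 9 rising genes encode proteins of several kinds. Arhgap22, a GTPase-activating protein for Rac, had 5.87, 3.40 and 4.60 CPM in Ch25h-/-, 15.9, 11.3 and 12.9 CPM in B6 and 51.0, 45.4 and 42.9 CPM with 25HC. No library of one group overlapped with the next. The genotype step was 1.53 ± 0.18 on the log2 scale (SE, n = 3 libraries a group, adjusted p = 0.00289) and the oxysterol step 1.80 ± 0.16 (adjusted p = 1.5e-06). Of the 11 genes in order, Arhgap22 alone was in order in each of the 9 fits that left out 1 library. It lost this when replicate number 1 or 3 was left out of every group, and when only the 9 PAM3 libraries were fitted, which left no gene in order.

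Irf2bp2, a transcriptional corepressor that binds IRF2, had 66.6, 49.8 and 60.7 CPM in Ch25h-/-, 105, 96.4 and 105 CPM in B6 and 174, 212 and 179 CPM with 25HC. Its steps were alike in size, 0.79 ± 0.12 (adjusted p = 0.0166) and 0.88 ± 0.12 (adjusted p = 4.0e-05), and the difference between them was 0.08 with a 95% interval of -0.36 to 0.53. Dusp8, a phosphatase that acts on MAP kinases, was low throughout, with 0.573, 0.218 and 0.279 CPM, then 2.68, 1.35 and 1.83 CPM, then 9.99, 9.95 and 8.72 CPM with 25HC. Its steps were 2.44 ± 0.41 (adjusted p = 0.0317) and 2.31 ± 0.31 (adjusted p = 3.6e-05). Both genes were in order in libraries and in means.

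Rhob, a small GTPase of endosomes and actin, stood at 23.6, 20.5 and 20.6 CPM in Ch25h-/-, 32.2, 32.8 and 34.3 CPM in B6 and 93.6, 103 and 91.3 CPM with 25HC. Its genotype step of 0.62 ± 0.11 was smaller than its oxysterol step of 1.54 ± 0.11, and the steps differed (adjusted p = 0.00561). Cuedc1, which encodes a protein with a ubiquitin-binding CUE domain, had 8.21, 7.67 and 9.25 CPM, then 13.4, 14.2 and 14.2 CPM, then 35.8, 32.1 and 33.2 CPM. Slc27a4, a fatty acid transport protein, had 42.5, 36.7 and 40.4 CPM, then 62.1, 51.4 and 61.6 CPM, then 121, 118 and 123 CPM. Dapk1, a death-associated protein kinase, had 22.3, 20.4 and 19.7 CPM, then 41.2, 29.5 and 31.8 CPM, then 50.3, 45.1 and 45.9 CPM. For Dapk1 the larger step was that of genotype, 0.72 against 0.46, and the difference between steps did not pass the test (adjusted p = 0.443). Plekhh3 had 2.66 CPM in Ch25h-/-, 6.89 CPM with 25HC and 4.34 to 5.23 CPM in the B6 libraries. Bspry had no read in the Ch25h-/- libraries. Against the floor of 3 counts over that group, it was at least 4.15-fold higher in B6 and at least 9.61-fold higher with 25HC, at levels of 0.164 to 0.281 and 0.324 to 0.488 CPM.

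The 2 falling genes were Fgd6, an exchange factor for the GTPase Cdc42, and Gm5150, a predicted gene named here after its values were seen. Fgd6 had 123, 160 and 129 CPM in Ch25h-/-, 72.9, 98.6 and 62.1 CPM in B6 and 54.0, 50.2 and 53.7 CPM with 25HC. Gm5150 had 52.6, 129 and 64.7 CPM, then 11.0, 30.02 and 24.9 CPM, then 2.21, 3.19 and 2.45 CPM. The call was narrow for Fgd6 and Plekhh3, which lay just inside it with an adjusted p of 0.0448 in the genotype step. Just outside were Lgals3, which encodes galectin-3, at 0.0592 and the corepressor Tle4 at 0.0560. Lgals3 rose from 148 to 238 CPM through 287 to 475 CPM to 1108 to 1276 CPM, again without overlap. Leaving out Ch25h-/- replicate 2 or 3, or B6 replicate 1 or 3, left 1 gene in order; without Ch25h-/- replicate 1 there were 130 and without B6 replicate 2 there were 48. Leaving out 1 library of the 25HC group gave 2, 9 and 4. DESeq2 called 213, with all 11 among them, and thinning all libraries to equal depth left 3.

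**Figure D1:**
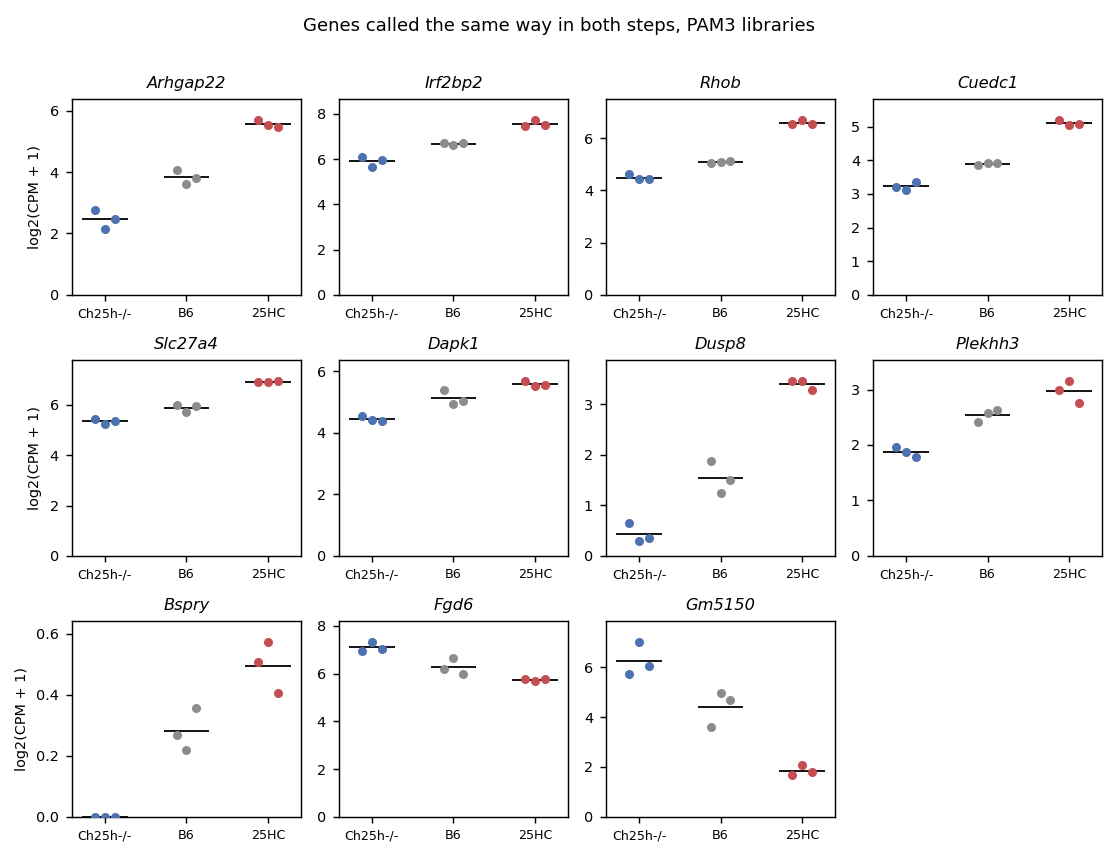
Level of the 11 genes called the same way in both steps, as log2(CPM + 1) on the vertical axis, for the 3 PAM3 groups; points are libraries and bars group means. The 3 groups do not overlap in any panel; Bspry is at 0 in the Ch25h-/- libraries.

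The same order was looked at in the 9 libraries at rest. Their values entered neither step, but they were in the same fit and so shared its filter and its estimate of the spread, and the same numbered mice may have supplied both sets. The values at rest are therefore a description. Between the ends at rest 20.1% of tested genes were higher with 25HC and 17.7% lower. Of the 9 rising genes 6 were also higher at rest, and both falling genes were lower. Arhgap22 at rest had 62.4, 72.3 and 70.5 CPM in Ch25h-/-, 93.8, 108 and 82.2 CPM in B6 and 142, 159 and 141 CPM with 25HC. It was thus far more abundant without PAM3, and its ends differed by 1.11 on the log2 scale (adjusted p = 1.6e-04). Irf2bp2 at rest had 174, 215 and 178 CPM in Ch25h-/- and 183, 182 and 192 CPM with 25HC, a difference of -0.02 (adjusted p = 0.891). Dapk1 and Bspry did not pass the test at rest either, with differences of 0.32 (adjusted p = 0.0531) and 0.24 (adjusted p = 0.593). Of the 679 genes whose PAM3 libraries rose in order, 51.4% were higher at rest and 4.12% lower; of the 342 that fell in order, 52.9% were lower and 2.34% higher. The resting libraries were themselves in order, in the same direction, for 68 of the 679 and 36 of the 342. Over all 3134 genes higher between the ends with PAM3, 36.6% were higher at rest and 170 had resting libraries rising in order; over all 2967 lower ones, 30.1% were lower and 105 had them falling.

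Dusp8 is the one gene in order whose promoter held a cAMP response element, the 8-base site of the ATF and CREB factors. Promoters were the RefSeq windows of GRCm38.p6 from 250 bases before to 50 after a start, searched on both strands. The letters TGACGTCA were found in 1.79% of 32851 windows. The Dusp8 window is printed because it holds the match at 2 places, in capitals, 5′ to 3′ along the gene.
Dusp8 promoter, chr7:142095235-142095534, minus strand: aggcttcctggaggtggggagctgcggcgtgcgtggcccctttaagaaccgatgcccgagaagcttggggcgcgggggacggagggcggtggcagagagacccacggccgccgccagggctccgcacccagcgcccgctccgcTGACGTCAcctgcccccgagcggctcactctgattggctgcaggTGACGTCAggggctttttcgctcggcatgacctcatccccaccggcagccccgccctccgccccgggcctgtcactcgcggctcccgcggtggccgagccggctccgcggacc
The AP-1 letters TGANTCA, found in 7.81% of windows, were in none of the 11 promoters. A match is a description of the letters and not evidence of a bound factor.

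The genes of cholesterol synthesis fell between the ends without running in order. Among all tested genes 23.3% were lower between the ends and 24.6% higher. Of 21 tested members of the mevalonate and cholesterol pathway, 20 were lower with 25HC than in Ch25h-/- and 1, Ggps1, an enzyme that makes geranylgeranyl diphosphate for protein prenylation, was higher. The median difference was -2.55 on the log2 scale, beside 0.01 over all tested genes. The genotype step called none of them, its median was 0.10, and no member had its libraries in order. For 18 of the 21 the oxysterol step was more negative than the genotype step by the test of the difference. Hmgcs1, the synthase that makes HMG-CoA, had 257, 134 and 271 CPM in Ch25h-/-, 202, 155 and 179 CPM in B6 and 42.8, 42.1 and 43.8 CPM with 25HC. Ch25h-/- and B6 overlapped and both lay above all 25HC libraries. Dhcr7, which makes the last step to cholesterol, had 67.2, 35.1 and 70.7 CPM, then 56.1, 70.5 and 71.7 CPM, then 3.69, 4.90 and 3.261 CPM, and its ends differed by -3.85 ± 0.35 (adjusted p = 8.1e-07).

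Ch25h-/- replicate 2 was the lowest of its group for both Hmgcs1 and Dhcr7. Relative to the B6 mean, the median member lay at 0.14, -0.79 and 0.22 on the log2(CPM + 1) scale in Ch25h-/-, at -0.02, -0.10 and 0.13 in B6 and at -2.68, -2.53 and -2.62 with 25HC. Without that library the median genotype step turned to -0.17, 15 of 21 members were below 0 and 9 had libraries in falling order; none was called in the genotype step, and 18 had unequal steps.

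Insig1, the SREBP anchor and itself an SREBP target, had 176, 78.6 and 173 CPM in Ch25h-/-, 173, 141 and 188 CPM in B6 and 41.5, 43.4 and 41.6 CPM with 25HC. The fatty acid desaturase Fads2 had 124, 14.03 and 110 CPM in Ch25h-/-, 107, 113 and 125 CPM in B6 and 0.790, 1.90 and 0.971 CPM with 25HC. Scd1, which makes monounsaturated fatty acids, had 356, 18.9 and 260 CPM, then 232, 187 and 261 CPM, then 8.30, 7.80 and 10.4 CPM. For Fads2 and Scd1, Ch25h-/- replicate 2 lay between the other libraries of its group and the 25HC libraries. In the list of 17 tested genes of fatty acid synthesis and desaturation 11 were lower between the ends and 1 higher. The shares over all tested genes were 23.3% and 24.6%. None of the 17 was called in the genotype step, and 7 had unequal steps, against 4 without B6 replicate 2 and 3 without B6 replicate 3. Without Ch25h-/- replicate 2, 3 had libraries in falling order, and the median genotype step of 0.16 turned to -0.02.

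The letters TCACNCCAC, a consensus of the sterol regulatory element to which SREBP binds, were in 1.24% of the 32851 windows. Of the 16 promoters matched to cholesterol genes 1 held them, that of Hmgcs1, which is shown with the match in capitals.
Hmgcs1 promoter, chr13:119690101-119690400, plus strand: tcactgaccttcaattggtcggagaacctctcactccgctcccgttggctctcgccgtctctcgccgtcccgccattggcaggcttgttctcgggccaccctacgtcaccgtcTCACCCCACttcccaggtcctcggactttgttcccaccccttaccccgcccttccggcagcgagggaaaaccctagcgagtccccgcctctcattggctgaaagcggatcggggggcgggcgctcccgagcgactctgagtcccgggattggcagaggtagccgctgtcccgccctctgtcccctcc

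The LXR targets did not move as one. Abcg1, a cholesterol exporter, ran in order of libraries, with 211, 149 and 179 CPM in Ch25h-/-, 234, 244 and 266 CPM in B6 and 691, 630 and 635 CPM with 25HC. Mylip, a ubiquitin ligase for the LDL receptor, did so too, with 66.0, 38.9 and 54.7 CPM, then 87.2, 72.6 and 78.1 CPM, then 187, 183 and 173 CPM. So did Arl4c, a small GTPase, which went from 31.6 to 36.3 CPM through 50.6 to 56.7 CPM to 245 to 271 CPM. The genotype step passed for none of the 3, with adjusted p of 0.356, 0.191 and 0.107. Abca1, another exporter, had a genotype step of 0.00 and an oxysterol step of 1.58 (adjusted p = 0.00376). Nr1h3, which encodes LXR alpha, was lower with 25HC (24.8 to 41.8 CPM) than in Ch25h-/- (64.8 to 74.4 CPM) and B6 (84.2 to 104 CPM). Among the 17 tested members of this list 6 were higher and 8 lower between the ends, and 3 were in rising order of libraries. The shares over all tested genes were 24.6%, 23.3% and 5.33%.

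Genes of lipid storage were mostly higher at the 25HC end. Of 14 tested, 8 were higher and 1 lower between the ends, and 4 rose in order of libraries. The shares over all tested genes were 24.6%, 23.3% and 5.33%. Hilpda, a lipid droplet protein that inhibits lipolysis, had 3.39, 3.14 and 3.35 CPM in Ch25h-/-, 5.01, 4.25 and 5.18 CPM in B6 and 55.7, 47.7 and 64.1 CPM with 25HC. Soat2, which esterifies cholesterol, had 3.63, 3.05 and 3.72 CPM, then 4.39, 3.97 and 4.14 CPM, then 25.3, 23.9 and 24.1 CPM. In both the oxysterol step was the larger by test, with adjusted p of 1.6e-04 and 0.0195. Plin2, a coat protein of lipid droplets, took smaller steps of 0.48 and 0.34, and neither passed (adjusted p = 0.191 and 0.105), although its ends differed (0.82 ± 0.17, adjusted p = 8.2e-04).

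**Figure D2:**
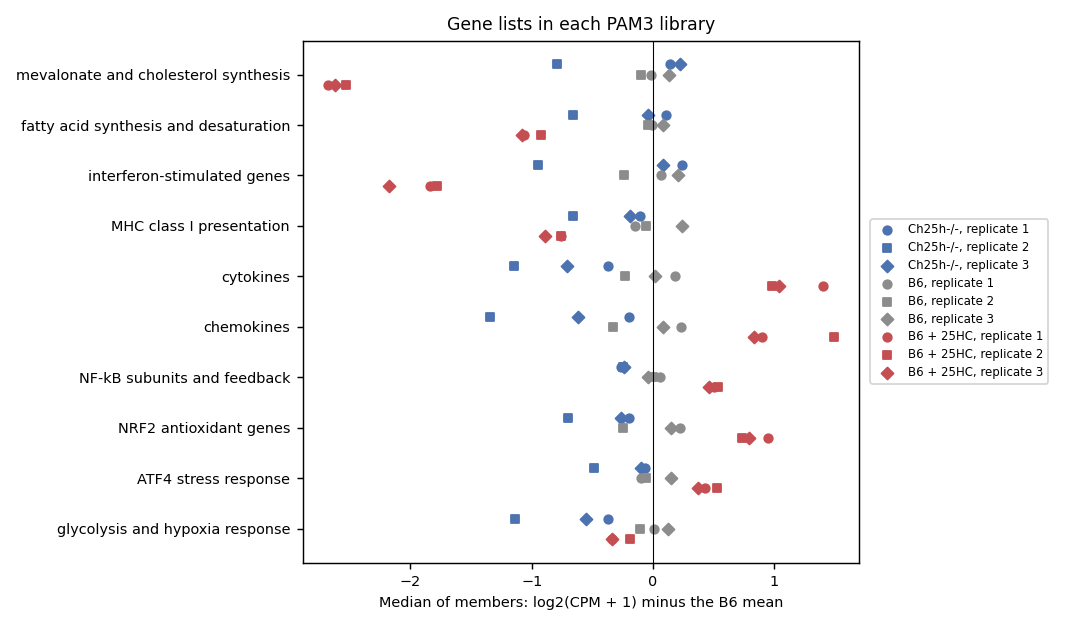
Median over the members of 10 gene lists of log2(CPM + 1) minus the mean of the B6 libraries, on the horizontal axis, in each of the 9 PAM3 libraries; colour gives the group and symbol the replicate number. For cholesterol synthesis the 25HC libraries lie at -2.68 to -2.53, and Ch25h-/- replicate 2 lies apart at -0.79.

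Interferon-stimulated genes showed the same kind of pattern, beside 23.3% of all tested genes lower between the ends and 24.6% higher. Of 44 tested, 43 were lower with 25HC than in Ch25h-/- and the other, Ifi205, did not pass (0.80, adjusted p = 0.130); Ggps1 and Ifi205 are named after their values were seen. The median difference was -1.88. None was called in the genotype step, whose median was 0.15, none had libraries in order, and for 41 the oxysterol step was the more negative by test, a count that fell to 23 without B6 replicate 3. Mx1, an antiviral GTPase, had 174, 66.8 and 128 CPM in Ch25h-/-, 109, 107 and 139 CPM in B6 and 5.20, 9.33 and 5.02 CPM with 25HC. The range of B6 lay inside that of Ch25h-/-. The ends differed by -4.22 ± 0.36 (adjusted p = 4.7e-07) and the steps were -0.05 and -4.17. Oas2, which makes the oligoadenylate messenger of antiviral RNA decay, had 165, 92.4 and 165 CPM, then 154, 129 and 139 CPM, then 39.5, 38.3 and 31.1 CPM. Bst2, which tethers budding virions, had 601, 292 and 577 CPM, then 484, 516 and 753 CPM, then 162, 227 and 152 CPM. The interferon-inducible GTPases, which act at the vacuoles of intracellular pathogens, had 10 of 15 lower and none higher between the ends, with none called in the genotype step, whose median of 0.23 turned to -0.12 without Ch25h-/- replicate 2. Igtp, one of them, had 93.2, 67.1 and 98.4 CPM, then 79.3, 78.6 and 105 CPM, then 19.2, 21.8 and 15.96 CPM.

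Here too Ch25h-/- replicate 2 was low. The median interferon-stimulated gene lay at 0.24, -0.95 and 0.08 relative to the B6 mean in Ch25h-/- and at -1.84, -1.78 and -2.18 with 25HC. Without replicate 2 the median genotype step turned to -0.13, 37 of 44 members were below 0 and 6 had libraries in falling order, while 39 had unequal steps. Families of similar genes such as Ifit, Oas, Gbp and Tgtp can share reads, and the sources used here do not give how such reads were counted.

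The interferon-stimulated response element was searched as GAAA, any 2 bases, GAAA on both strands, letters that may overlap with simple repeats. It was in 16 of the 32 promoters matched to interferon-stimulated genes and in 3.44% of all windows. The 3 shown belong to members lower between the ends with group means in falling order, chosen by the smallest p. Their genotype steps, -0.18 for Ifit3, -0.30 for Slfn5 and -0.02 for Ddx60, did not pass the test, and their end differences were -4.51, -2.14 and -2.20. Ifit3 lies on chromosome 19 within 10 Mb of Ch25h. Capitals mark the matches, which in Ifit3 are on the strand opposite to the gene.
Ifit3 promoter, chr19:34583279-34583578, plus strand: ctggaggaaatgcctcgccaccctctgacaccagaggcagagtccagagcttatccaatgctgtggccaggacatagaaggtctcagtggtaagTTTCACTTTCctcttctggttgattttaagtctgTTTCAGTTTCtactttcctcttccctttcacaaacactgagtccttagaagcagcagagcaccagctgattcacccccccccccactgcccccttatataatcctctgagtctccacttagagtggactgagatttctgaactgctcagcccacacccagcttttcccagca
Slfn5 promoter, chr11:82951852-82952151, plus strand: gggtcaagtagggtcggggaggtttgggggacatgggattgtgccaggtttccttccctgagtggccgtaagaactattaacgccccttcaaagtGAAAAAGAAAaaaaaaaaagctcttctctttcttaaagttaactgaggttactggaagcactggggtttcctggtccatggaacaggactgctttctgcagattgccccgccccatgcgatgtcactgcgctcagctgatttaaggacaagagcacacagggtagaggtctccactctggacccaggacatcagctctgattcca
Ddx60 promoter, chr8:61927837-61928136, plus strand: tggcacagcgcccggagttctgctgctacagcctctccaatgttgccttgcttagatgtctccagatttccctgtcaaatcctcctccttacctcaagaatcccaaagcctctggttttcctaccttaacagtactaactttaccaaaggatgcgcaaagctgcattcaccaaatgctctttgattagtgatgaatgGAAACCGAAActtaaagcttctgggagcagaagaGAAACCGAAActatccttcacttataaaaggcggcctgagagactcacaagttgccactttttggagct

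Presentation on MHC class I, which interferon also raises, had 9 of 15 tested genes lower and 1 higher between the ends. The shares over all tested genes were 23.3% and 24.6%. The genotype step was above 0 for 14 of the 15, with a median of 0.31 and no call, and the oxysterol step had a median of -0.72; 11 had unequal steps, but 7 did without B6 replicate 2 or either of 25HC replicates 1 and 3, and 3 without B6 replicate 3. Psmb9, an immunoproteasome subunit, had 58.3, 44.4 and 53.3 CPM in Ch25h-/-, 51.5, 63.8 and 75.8 CPM in B6 and 20.5, 29.1 and 21.7 CPM with 25HC. Without Ch25h-/- replicate 2, 10 of the 15 genotype steps were above 0. Upstream of these genes the interferon receptor chains ran the other way. Ifnar1 had 273, 223 and 256 CPM, then 368, 282 and 301 CPM, then 393, 403 and 425 CPM, and Ifnar2 had 110 to 127, 144 to 166 and 169 to 199 CPM. Both rose between the ends (0.70 ± 0.13, adjusted p = 3.0e-04, and 0.65 ± 0.11, adjusted p = 2.2e-04) with libraries in order. Socs1, an inhibitor of cytokine receptor signalling, had 14.4, 4.01 and 8.69 CPM, then 25.3, 21.7 and 20.6 CPM, then 31.0, 60.5 and 32.7 CPM.

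**Figure D3:**
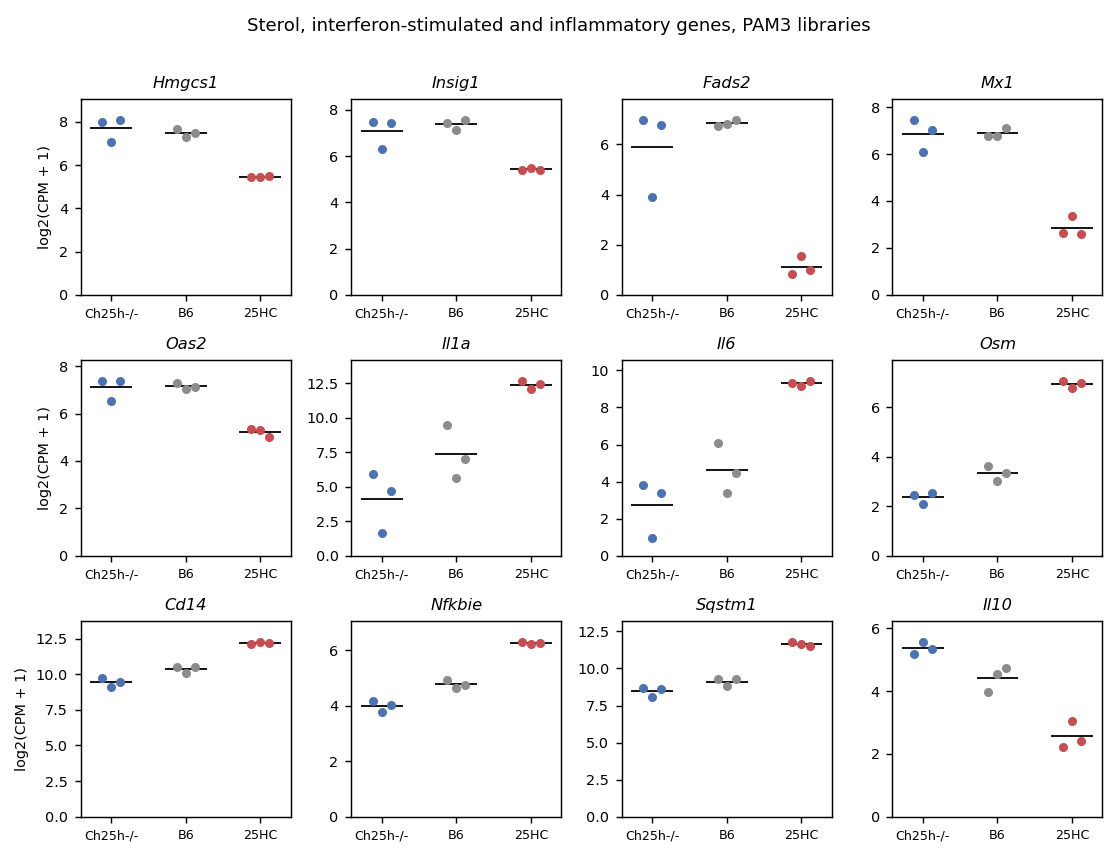
Level of 12 genes as log2(CPM + 1) on the vertical axis in the 3 PAM3 groups; points are libraries and bars group means. For Hmgcs1, Insig1, Fads2, Mx1 and Oas2, Ch25h-/- and B6 overlap and lie above 25HC, while for Osm, Cd14, Nfkbie and Sqstm1 the libraries rise and for Il10 they fall in order.

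Cytokine genes had the largest median of the fitted log2 differences between the ends among the 27 pathway lists. On the log2(CPM + 1) scale relative to the B6 mean, the median cytokine lay at -0.37, -1.15 and -0.71 in Ch25h-/- and 1.40, 0.98 and 1.04 with 25HC. The cholesterol genes were further apart on that scale, so the ranking is that of the fitted differences. Of 23 tested, 17 were higher and 3 lower with 25HC than in Ch25h-/-, with a median difference of 3.60. The genotype step was above 0 for 21 of them with a median of 0.99 but called none, and the oxysterol step had a median of 2.39. Means rose in order for 16 and libraries for 4, or 10 without Ch25h-/- replicate 1 or B6 replicate 2. Over all tested genes 24.6% were higher and 23.3% lower, means rose in order for 18.2% and libraries for 5.33%. Osm, a cytokine of the interleukin 6 family, had 4.44, 3.31 and 4.74 CPM in Ch25h-/-, 11.4, 7.06 and 9.23 CPM in B6 and 133, 109 and 127 CPM with 25HC. Its genotype step of 1.14 had an adjusted p of 0.0592, its oxysterol step was 3.74 (adjusted p = 9.4e-08), and the steps differed (adjusted p = 0.00117). Vegfa, the vascular growth factor, had 29.98, 11.9 and 22.6 CPM, then 51.8, 38.7 and 47.4 CPM, then 219, 271 and 292 CPM. Neither gene had overlapping groups.

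Il1a and Il6 spread widely within groups. Il1a, an alarm cytokine of the interleukin 1 family, had 60.9, 2.09 and 25.4 CPM in Ch25h-/-, 707, 48.9 and 126 CPM in B6 and 6447, 4380 and 5479 CPM with 25HC. Il6 had 13.3, 0.915 and 9.43 CPM, then 66.0, 9.41 and 21.4 CPM, then 647, 562 and 689 CPM. B6 replicate 2 fell inside the range of Ch25h-/- for both, B6 replicate 1 was the highest of its group and Ch25h-/- replicate 2 the lowest of its own. The genotype steps of 3.32 ± 0.94 for Il1a and 2.03 ± 0.67 for Il6 did not pass (adjusted p = 0.120 and 0.171). Csf1, the macrophage growth factor, had 4.06, 1.70 and 3.02 CPM, then 11.3, 3.69 and 7.06 CPM, then 42.5, 35.7 and 42.1 CPM. Il10, an anti-inflammatory cytokine, ran the opposite way in order of libraries, with 35.3, 46.3 and 39.2 CPM, then 14.7, 22.5 and 25.6 CPM, then 3.70, 7.22 and 4.30 CPM. Its ends differed by -2.98 ± 0.29 (adjusted p = 1.3e-06) and its genotype step was -0.94 (adjusted p = 0.120). Without Ch25h-/- replicate 2 the list had 14 higher and 4 lower between the ends and a median genotype step of 0.81.

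Of 21 tested chemokine genes 15 were higher and 3 lower between the ends, beside 24.6% and 23.3% of all tested genes. None was lower without 25HC replicate 3, and 1 was without Ch25h-/- replicate 1 or 3 or 25HC replicate 1. The medians were 2.18 for the ends, 0.83 for the genotype step and 1.63 for the oxysterol step. Cxcl1, Cxcl3 and Cxcl5, which draw neutrophils through CXCR2, were among the genes with the largest rises. Cxcl1 had 2.82, 0.523 and 0.790 CPM in Ch25h-/-, 15.3, 2.50 and 9.26 CPM in B6 and 364, 237 and 451 CPM with 25HC. Its genotype step was 2.70 (adjusted p = 0.0928) and its oxysterol step 5.30 (adjusted p = 1.5e-05). Cxcl3 had 6.02, 0.479 and 2.88 CPM, then 46.5, 2.55 and 13.6 CPM, then 1588, 633 and 1417 CPM. Ccl3, a chemokine that draws monocytes, rose in order of libraries, with 298, 126 and 270 CPM, then 781, 342 and 493 CPM, then 1855, 1670 and 1486 CPM. Without Ch25h-/- replicate 2 the median genotype step of the chemokines was 0.53.

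Of 16 tested Toll-like receptors and co-receptors 3 were higher and 8 lower between the ends, and of 16 signalling genes below them 5 were higher and 6 lower. Over all tested genes 24.6% were higher and 23.3% lower, and the median end difference of the signalling genes was -0.08. Tlr2, the lipopeptide receptor that pairs with Tlr1 or Tlr6, had 238, 208 and 266 CPM in Ch25h-/-, 420, 306 and 358 CPM in B6 and 900, 892 and 913 CPM with 25HC, in order of libraries. Its partner for PAM3, Tlr1, had 555, 495 and 566 CPM, then 533, 492 and 473 CPM, then 213, 258 and 197 CPM. Tlr6, the other partner, had 31.3 to 42.0 CPM in all 9 libraries, and its ends differed by 0.15 (adjusted p = 0.358, 95% interval -0.13 to 0.43). Cd14, a co-receptor, had 867, 552 and 696 CPM, then 1431, 1101 and 1440 CPM, then 4378, 4924 and 4753 CPM, with a genotype step of 0.91 (adjusted p = 0.0698) and an oxysterol step of 1.82 (adjusted p = 7.8e-06). The adaptor Myd88 fell, by -0.79 ± 0.13 (adjusted p = 1.7e-04), from 189, 234 and 211 CPM through 149, 200 and 200 CPM to 118, 132 and 117 CPM.

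In the NF-kB list 13 of 23 tested genes were higher and 4 lower between the ends, beside 24.6% and 23.3% of all tested genes. The count lower was 2 when Ch25h-/- replicate 2 or 3 or 25HC replicate 1 or 3 was left out. Libraries rose in order for 8 of the 23 and fell in order for 1, beside 5.33% and 2.68% of all tested genes. Nfkbie, an inhibitor of the I-kappa-B family that NF-kB itself induces, had 16.8, 12.7 and 15.3 CPM in Ch25h-/-, 29.1, 24.1 and 25.6 CPM in B6 and 77.6, 74.2 and 74.5 CPM with 25HC. Its genotype step was 0.82 (adjusted p = 0.0605) and its oxysterol step 1.52 (adjusted p = 7.0e-06). Nfkb1, which encodes p50 and its precursor, had 204, 190 and 209 CPM, then 295, 243 and 237 CPM, then 480, 460 and 455 CPM. Rela, the p65 subunit, had 69.2, 71.9 and 69.9 CPM, then 81.9, 84.8 and 91.4 CPM, then 167, 169 and 155 CPM. Ikbkb, the kinase that releases NF-kB, had 111 to 116, 134 to 175 and 240 to 254 CPM. The genotype steps of these 3 were 0.36, 0.29 and 0.40, and none passed the test (adjusted p = 0.138, 0.165 and 0.0928).

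AP-1, EGR and related factors had 15 of 22 higher and 4 lower between the ends, beside 24.6% and 23.3% of all tested genes. Klf4, a zinc finger factor, had 5.92, 4.49 and 5.11 CPM in Ch25h-/-, 4.57, 5.58 and 6.36 CPM in B6 and 39.3, 34.7 and 42.2 CPM with 25HC, and Klf2, a related factor, had 4.01 to 4.79, 3.32 to 5.83 and 0.532 to 1.02 CPM. The 2 moved in opposite directions at the same step, by 2.82 and -2.54. Fosl2, an AP-1 subunit, had 30.7, 28.9 and 24.3 CPM, then 46.4, 30.2 and 33.4 CPM, then 324, 249 and 322 CPM.

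Stress-response lists differed in direction. Their counts stand beside 24.6% of all tested genes higher and 23.3% lower between the ends. For the ATF4 response 16 of 29 were higher and none lower between the ends. Means rose in order for 16 and libraries for 4, beside 18.2% and 5.33% of all tested genes. Without Ch25h-/- replicate 2, 13 were higher. Libraries were in order for 7 without Ch25h-/- replicate 1 and for 8 without B6 replicate 1 or 2. Ppp1r15a, which restarts translation by dephosphorylating eIF2 alpha, had 19.2, 12.1 and 15.5 CPM in Ch25h-/-, 26.6, 22.1 and 28.2 CPM in B6 and 125, 114 and 115 CPM with 25HC. Its genotype step was 0.71 (adjusted p = 0.0627) and its oxysterol step 2.20 (adjusted p = 2.5e-07). Trib3, a pseudokinase of this response, had 24.0, 14.6 and 22.8 CPM, then 25.1, 30.5 and 34.7 CPM, then 113, 131 and 113 CPM. For the NRF2 antioxidant genes 12 of 17 were higher and 3 lower, and the genotype step was above 0 for all 17, with a median of 0.39 and no call; without Ch25h-/- replicate 2 it was above 0 for all 17 as well, with a median of 0.24. Srxn1, which repairs oxidised peroxiredoxins, had 89.1, 55.3 and 78.5 CPM, then 132, 82.9 and 123 CPM, then 544, 437 and 475 CPM. Sqstm1, the autophagy receptor p62 and an NRF2 target, rose in order of libraries from 270 to 405 CPM through 449 to 621 CPM to 2958 to 3540 CPM. Among chaperones and unfolded protein response genes of the endoplasmic reticulum 10 of 20 were lower and 3 higher between the ends. Sel1l, part of the degradation machinery there, fell in order of libraries, with 485, 546 and 518 CPM, then 443, 468 and 393 CPM, then 311, 353 and 324 CPM.

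For glycolysis and hypoxia genes the genotype step was the larger of the median steps. Of 24 tested, 22 had a genotype step above 0, with a median of 0.69 and none called, while the median oxysterol step was -0.30. Between the ends 9 were higher and 2 lower, beside 24.6% and 23.3% of all tested genes. Without Ch25h-/- replicate 2, the lowest library for this list at -1.14 relative to the B6 mean, the median genotype step was 0.47 and 21 of 24 were above 0. Leaving out Ch25h-/- replicate 1 gave 6 genotype calls higher and 1 lower (median 0.83), and leaving out B6 replicate 2 gave 1 higher. Ndrg1, a hypoxia-inducible gene, went against the list, with 484, 2393 and 722 CPM in Ch25h-/-, 160, 494 and 343 CPM in B6 and 112, 125 and 113 CPM with 25HC. Ero1l, an oxidase of protein folding that hypoxia induces, had 159, 69.8 and 122 CPM, then 258, 150 and 175 CPM, then 391, 393 and 441 CPM. Respiratory chain genes had 16 of 30 lower between the ends, beside 23.3% of all tested genes, and a median genotype step of 0.04. Without 25HC replicate 1, 10 respiratory chain genes were lower. Cell cycle genes had 11 of 30 lower between the ends and none higher, beside 23.3% and 24.6% of all tested genes. The count was 7 without Ch25h-/- replicate 1 or 25HC replicate 3, 5 without Ch25h-/- replicate 3 and 6 without 25HC replicate 1 or 2. None had libraries in falling order, and 7 did without Ch25h-/- replicate 2.

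**Figure D4:**
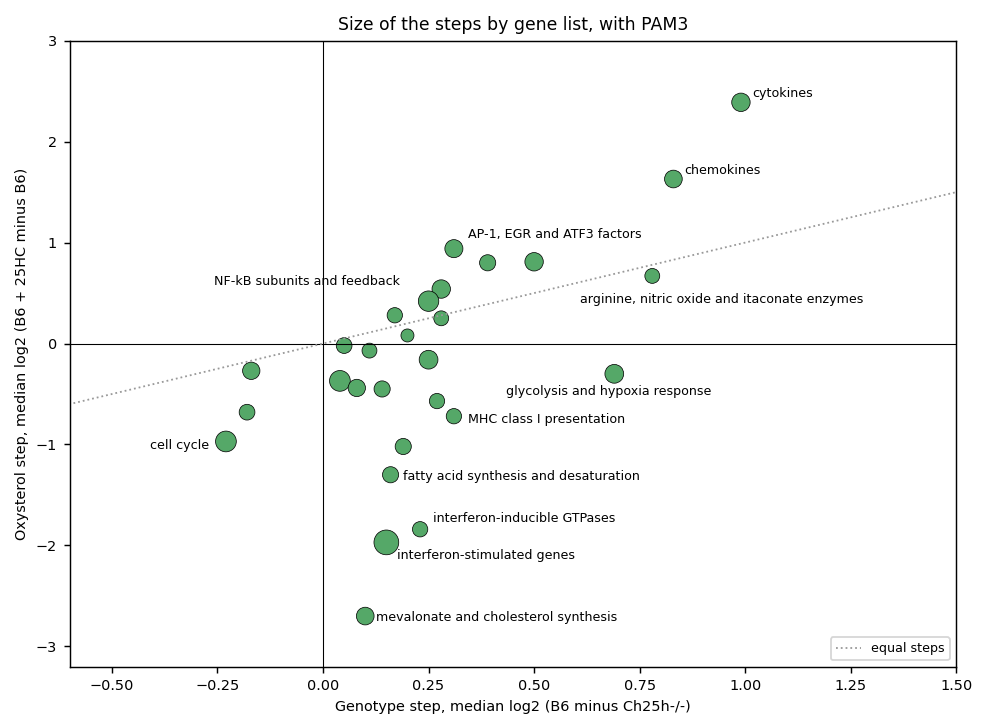
Median log2 difference over list members in the genotype step (horizontal axis) and the oxysterol step (vertical axis), with PAM3. Points are the 27 pathway lists and the macrophage identity list. Point area grows with the number of tested members and the dotted line marks equal steps. Cytokines lie at 0.99 and 2.39, cholesterol synthesis at 0.10 and -2.70; without Ch25h-/- replicate 2 the latter's genotype step is -0.17.

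The largest rises between the ends outside the chemokines were Inhba, Nt5e, Tmeff1, Spint1 and Il1a. Inhba, which encodes the activin A subunit, had 0.525, 0.174 and 0.325 CPM in Ch25h-/-, 5.29, 0.491 and 0.366 CPM in B6 and 226, 127 and 235 CPM with 25HC. In B6 replicate 1 was high and the other replicates were near Ch25h-/-. The oxysterol step was 6.67 ± 0.76 (adjusted p = 9.6e-06). Nt5e encodes CD73, which makes adenosine from AMP, and had 1 read over the Ch25h-/- libraries; its level was 468 times higher with 25HC (95% interval for counting error 83.8 to 18485).

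The largest falls included genes that ran down through all 3 groups. Slc13a3, a transporter of dicarboxylates, had 1251, 5934 and 2026 CPM in Ch25h-/-, 355, 1140 and 637 CPM in B6 and 24.9, 73.7 and 24.3 CPM with 25HC. No groups overlapped; the genotype step was -2.11 (adjusted p = 0.0971) and the oxysterol step -4.11 (adjusted p = 5.7e-05). Fcrls, an Fc receptor-like gene, had 150, 1065 and 307 CPM, then 58.7, 148 and 90.9 CPM, then 7.99, 20.9 and 6.57 CPM. Raver2, an RNA-binding protein gene, had 25.5, 77.4 and 39.9 CPM, then 4.93, 20.96 and 11.3 CPM, then 0.263, 0.580 and 0.162 CPM. Tns1, which links integrins to actin, had 13.4, 36.2 and 17.5 CPM, then 4.09, 13.4 and 6.81 CPM, then 0.211, 0.824 and 0.301 CPM. In these genes replicate 2 was the highest library in each of the 3 groups. Cd209f, a C-type lectin of the DC-SIGN family, fell with 2.67, 37.1 and 6.32 CPM, then 0.843, 2.18 and 1.88 CPM, then 0.0702, 0.206 and 0.0463 CPM. The transcription factor Maf and the integrin Itgam (CD11b), both of macrophage identity, also fell in order of libraries, Maf from 796 to 922 CPM through 567 to 641 CPM to 180 to 220 CPM and Itgam from 3718 to 4997 CPM through 3165 to 3689 CPM to 2185 to 2458 CPM. Of the 20 tested macrophage identity genes 11 were lower and 4 higher between the ends, beside 23.3% and 24.6% of all tested genes. The count higher was 2 without Ch25h-/- replicate 3 or 25HC replicate 3.

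A few genes were called in the genotype step and not in the oxysterol step. Mical1, an oxidase of actin filaments, had 6.87, 3.05 and 4.69 CPM in Ch25h-/-, 12.2, 12.3 and 14.4 CPM in B6 and 15.2, 14.7 and 15.2 CPM with 25HC. Its genotype step was 1.41 ± 0.19 (adjusted p = 0.00842) and its oxysterol step 0.21 ± 0.18 (adjusted p = 0.344), and the steps differed (adjusted p = 0.0176). Rgs11, a regulator of G protein signalling, had 3.53, 3.75 and 3.21 CPM, then 7.36, 8.15 and 7.26 CPM, then 5.06, 7.36 and 6.48 CPM. Ccr2, the receptor for Ccl2, had 24.1, 34.3 and 26.7 CPM, then 12.5, 9.54 and 11.8 CPM, then 10.2, 8.44 and 14.2 CPM, and its steps of -1.33 and -0.05 differed (adjusted p = 0.0262). Sos1, an activator of Ras, had 162, 274 and 191 CPM, then 97.7, 117 and 86.1 CPM, then 84.1, 72.8 and 79.3 CPM. Its libraries fell in order, the oxysterol step of -0.35 missed the threshold (adjusted p = 0.0835), and its steps did not differ by test (adjusted p = 0.0942). Rnls, which lies 1.34 Mb from Ch25h on chromosome 19 and was named after its values were seen, had 3.82, 3.53 and 3.58 CPM, then 1.51, 1.59 and 2.03 CPM, then 1.58, 2.18 and 1.87 CPM. Cnr2, the cannabinoid receptor of immune cells, was the single gene (0.00785%) that turned, up in the genotype step and down in the oxysterol step. It had 9.64, 9.37 and 9.30 CPM in Ch25h-/-, 13.4, 14.8 and 16.03 CPM in B6 and 9.16, 10.04 and 9.71 CPM with 25HC, so its ends did not differ by test (0.03 ± 0.12, adjusted p = 0.851).

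The difference between the ends was not the same with PAM3 as at rest. A test of that difference called 2111 genes (16.6%) as more positive with PAM3 and 2259 (17.7%) as more negative. Among the cholesterol genes 19 of 21 were more negative with PAM3, with a median end difference of -0.76 at rest, and among the interferon-stimulated genes 33 of 44 were, with -0.43 at rest. Of the ATF4 genes 15 of 29 were more negative with PAM3, with a median end difference of 1.87 at rest beside 0.58 with PAM3. The labels do not say how long the resting cells were kept, so state and time cannot be told apart.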

How the data were processed

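The deposited values are raw read counts per gene, 1 table of 30530 genes by 18 libraries, as the authors left them. Per the submitters' processing notes, FastQC 0.11.9, GSNAP 2018-07-04, featureCounts of Subread 1.5.2, edgeR 3.26.8 and the mouse build GRCm38 were used; their settings for strand and multi-mapping reads were not stated in these sources. Gene positions came from GENCODE M21.

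Low genes were removed with filterByExpr (6 groups), and the rest, after TMM scaling, were fitted with edgeR 4.0.16 (R 4.3.3; quasi-likelihood F test, robust, two-sided) in 1 model of all 18 libraries, with Benjamini-Hochberg adjustment over 12741 genes. Contrasts were the ends, the genotype step, the oxysterol step, the difference between the steps, and the ends with PAM3 minus the ends at rest. CPM used TMM-scaled library totals. SE is the absolute log2 difference over the square root of F. Floors of 3 counts and 95% intervals of counts cover counting error only. The labels number mice but do not say whether cultures were separate beyond that, so p-values measure the spread between these libraries.

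The members, the 36 lists (666 genes, 661 in the file, 603 tested) and the tests were chosen with earlier results of these data known. Named genes, reaching a mean of 5 CPM in some PAM3 group, were the 8 largest rises and falls of the ends, up to 12 in order each way, up to 6 each for the genotype step, turning and state, and up to 4 of each list with the smallest end p, plus Ch25h and other preset genes; a few genes that this rule names are not reported here. The labels tie B6 libraries with and without 25HC to the same mouse number (r of deviations 0.406, 0.377 and -0.162), and the animal as block gave 6374 calls in the oxysterol step. The procedure was tested on simulated data. Other settings tried were a filter at 1 CPM, no filter, DESeq2 1.42.0 (size factors, and its Wald test), the 9 PAM3 libraries alone, thinning to equal depth, the mouse number as block, each library or number left out, and removal of genes within 10 Mb of Ch25h. Tables and figures used Python 3.11.15, pandas 2.3.3, numpy 2.4.6 and matplotlib 3.10.9.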

Additional observations from a re-analysis of the deposited data

Results flagged for a closer look

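The difference between 25HC-treated B6 and Ch25h-/- cells depended on PAM3, by the test of that difference, for 4370 genes, and the values below are log2 differences (ends with PAM3 minus ends at rest) for some of the largest. More positive with PAM3 were Thbs1 (10.49), Ahr (8.15), Ppbp (7.85), Gimap6 (7.25), Cxcl1 (7.25) and Arg2 (7.21). Thbs1, which encodes the matrix protein thrombospondin 1, had 61.9, 1705 and 205 CPM in Ch25h-/- at rest and 17.3, 67.0 and 20.8 CPM with 25HC, but 35.9, 28.5 and 28.6 CPM against 2109, 1793 and 3230 CPM with PAM3. Ahr, the aryl hydrocarbon receptor, differed between the ends by -2.81 at rest (adjusted p = 0.00190) and 5.34 with PAM3. More negative with PAM3 were Nox1 (-6.82), Cd244 (-5.71), Scd1 (-5.50), Map1a (-4.97) and Slc13a3 (-4.84). Nox1, a superoxide-making oxidase, was higher with 25HC at rest (3.46, adjusted p = 2.4e-04) and lower with PAM3 (-3.37).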

How the results depend on the processing

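The counts for the ends, the oxysterol step, the unequal steps, the state difference and the libraries in order stayed within 1.5 times under the other scaling, test, filter and depth settings and, except for the state difference, which needs the resting libraries, with only the 9 PAM3 libraries, and removal of genes within 10 Mb of Ch25h left 6040, 5698, 2134, 4324 and 1013. The genotype step (22 genes) gave 404 with the DESeq2 Wald test, 13 without a filter, 0 with only the 9 PAM3 libraries and 8 after thinning. Genes in order (11) then numbered 213, 6, 0 and 3, and genes turning (1) numbered 40, 0, 0 and 0. The cause was not tested.

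Across genotypes the labels do not say whether equal mouse numbers pair libraries, and the main fit had no block for them. Same-numbered deviations correlated with r = 0.322, 0.459 and 0.0949 for the genotype step and 0.0929, 0.0604 and -0.0409 for the ends. In the genotype step each B6 library correlated best with the Ch25h-/- library of its own number. For the ends this held for 25HC replicates 1 and 2 and not for replicate 3. What the numbers share was not tested. With the number as replicate block the genotype step gave 368, genes in order 247 and genes turning 21.

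Leaving out 1 library gave 4998 to 6254 genes for the ends, 1 to 254 for the genotype step, 4484 to 6096 for the oxysterol step, 1 to 130 in order, 0 to 20 turning, 761 to 3234 with unequal steps, 3195 to 4586 for the state difference and 996 to 1696 with libraries in order. Leaving out 1 replicate number throughout gave 3021 to 6592, 0 to 384, 2061 to 6615, 0 to 228, 0 to 57, 0 to 3019, 228 to 5172 and 1133 to 2151 in the same order. Of the values for named genes under other settings 4124 kept their side of the threshold, 245 lost a call and 14 gained one, and no sign of a called value reversed. Depth limits the Ch25h-/- group most, where genes such as Bspry and Nt5e had 0 or 1 read.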
